A study of Mus musculus with 14 samples.

Results

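Spindle assembly kinases and pole proteins were followed in mouse oocytes through 10 genes: Aurka, Aurkb, Aurkc, Tpx2, Tacc3, Ckap5, Plk1, Plk4, Cep192 and Pcnt. The genes were taken by symbol, as a set chosen with earlier results of these data known. All 10 were listed in both count tables of the study, out of 16417 genes listed in both and 18562 listed in either. All 10 passed the filter on low counts in every comparison. The series asked what oocytes do without the mitochondrial unfoldase CLPX, with ovarian aging as its setting. RNA was sequenced with SMART-Seq2, which copies full-length cDNA from very little RNA. The oocytes belonged to 4 groups: ovulated CKO (3 libraries), ovulated WT (3 libraries), GV CKO (4 libraries) and GV WT (4 libraries). CKO oocytes came from Clpx fl/fl mice with a Zp3-Cre transgene. WT oocytes came from Clpx fl/fl mice without Cre. The genotype field gives the floxed alleles for all 4 groups, while the titles of the ovulated WT samples read Clpxfl/f. The Zp3 promoter is active in the oocyte and not in the cells around it, which keep Clpx. GV (germinal vesicle) oocytes still hold their nucleus before the meiotic divisions, and ovulated oocytes have built a meiotic spindle. The labels used here give neither the age of the mice nor the number of oocytes or animals behind a library. P-values therefore measure the spread between libraries, which may be partly technical.

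Mouse oocytes have no centrioles. Their spindle is organised by many small microtubule centres that carry pericentrin and CEP192, and these are broken up and sorted into poles under the control of Aurora A and polo-like kinase 1. Microtubules also form near the chromosomes, where Ran releases TPX2, the activator of Aurora A, and TACC3 with CKAP5 (chTOG) stabilises and lengthens them. Aurora B and Aurora C are the kinases of the chromosomal passenger complex, which corrects faulty attachments of chromosomes, and Aurora C is largely a germ-cell protein.

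Oocytes make little new RNA between these stages. Stored mRNAs are kept with short poly(A) tails, and some get longer tails as meiosis resumes, directed by a cytoplasmic polyadenylation element (CPE) close to the polyadenylation signal. Because the cDNA of SMART-Seq2 is primed on the poly(A) tail, the 3′ ends of several members that differed between the stages are shown, each as 30 bases with the CPE and the polyadenylation signal in capitals. Sequence and annotation are GENCODE M21 on GRCm38 (the build called mm10), written as the sense DNA strand. The sites come from 3′ UTRs.
Aurka, chr2:172356237-172356266, minus strand: ttaaaggctattTTTTATgttggagttctg
Aurkb, chr11:69051619-69051648, plus strand: agaacaacaTTTTATAATAAAgtcttaaat
Aurkc, chr7:7003045-7003074, plus strand: ctcTTTTATgaagtgatgttaATTAAAact
Tpx2, chr2:152895292-152895321, plus strand: gtaagccagccccaATTAAAtgttgtttat
Tacc3, chr5:33678946-33678975, plus strand: gggtagccctgtAATAAAgacagctctgtc
Ckap5, chr2:91620629-91620658, plus strand: taagagacTTTTATaAATAAAgtttgcatt
Plk1, chr7:122169843-122169872, plus strand: agctttatatatATTAAAatgtgtacatct
Plk4, chr3:40816840-40816869, plus strand: caaatacaTTTTATaaAATAAAcacagtgg
The CPE was searched as TTTTAT or TTTTAAT and the polyadenylation signal as AATAAA or ATTAAA, on the sense strand of the last 100 bases of the 3′ UTR, with overlaps between motifs allowed. Of 12603 tested genes with an annotated 3′ UTR, 19.2% held a CPE in that window and 80.4% a polyadenylation signal. A CPE was found for 6 members, Aurka, Aurkb, Aurkc, Ckap5, Plk4 and Pcnt, and Plk4 had 3 of them. Tpx2, Tacc3, Plk1 and Cep192 had none in this window. Aurka had a CPE and no polyadenylation signal in these letters.

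Total estimated counts were between 25086506 and 28471453 per library. Clpx was measured at 0.465, 0.575 and 0.269 CPM (counts scaled to library size) in ovulated CKO libraries, against 19.1, 18.5 and 17.0 CPM in ovulated WT libraries. It was at 0.676, 0.940, 1.36 and 1.44 CPM in GV CKO libraries, against 58.1, 39.6, 40.0 and 39.6 CPM in GV WT libraries. Clpx was thus 41.8-fold lower in ovulated CKO (edgeR adjusted p = 0.00123) and 40.2-fold lower in GV CKO oocytes (edgeR adjusted p = 6.48e-06), and each CKO library was far below every WT library of its stage. All 10 oocyte marker genes were present and summed to 16840 to 21160 CPM in ovulated CKO and 16500 to 25700 CPM in ovulated WT libraries, against 29050 to 64900 CPM in GV CKO and 31870 to 53140 CPM in GV WT libraries. The 16 granulosa and cumulus markers summed to 65.5 to 107 CPM in ovulated CKO and 64.8 to 129 CPM in ovulated WT libraries, against 41.7 to 66.5 CPM in GV CKO and 53.4 to 66.97 CPM in GV WT libraries. Of these, Foxl2, Amh, Inhbb and Areg were at 0 or not listed in both ovulated groups, and Ptx3, Tnfaip6 and Areg in both GV groups. Of the same 16, 3 had a median of at least 1 CPM in each ovulated group and 4 in each GV group. The 12 markers of other ovarian cells (theca, stroma, endothelium, blood) summed to 56.2 to 77.2 CPM in ovulated CKO and 46.3 to 109 CPM in ovulated WT libraries, against 21.3 to 42.0 CPM in GV CKO and 32.8 to 45.6 CPM in GV WT libraries. The part of these cells in the stage differences was not tested. The calls between ovulated CKO and WT depended on ovulated CKO replicate 3: without it, 201 genes passed in place of 1. Without any other single ovulated library, 1 to 3 genes passed.

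Most of the spindle genes differed between the stages, in both directions. In ovulated oocytes the mRNAs of Ckap5, Cep192, Plk4, Tpx2 and Pcnt were higher than in GV oocytes of the same genotype, and those of Tacc3, Aurka, Aurkb and Plk1 were lower. Aurkc was higher in ovulated WT oocytes and did not pass in CKO oocytes. The range was wide, from a 10.8-fold lower Tacc3 to a 3.63-fold higher Ckap5 in CKO oocytes, and from a 10.3-fold lower Tacc3 to a 4.07-fold higher Ckap5 in WT oocytes. In a fit of all 14 libraries with edgeR's quasi-likelihood test, at a Benjamini-Hochberg adjusted p of 0.05, 9 of 10 members passed in CKO oocytes (5 higher, 4 lower), where 55.7% of 13158 genes did (25.8% higher, 29.9% lower). In WT oocytes 10 of 10 passed (6 higher, 4 lower), where 63.7% of genes did (29.7% higher, 34% lower). The libraries of the stages did not overlap in CPM for 7 of 10 members in CKO, where 58.6% of genes did not, and for 9 of 10 in WT, where 62.3% did not. Members had a median log2 fold change of 0.56 in CKO and 0.85 in WT oocytes, and all tested genes had medians of −0.14 in CKO and −0.08 in WT. With scaling to total counts the medians of all genes were 0.45 in CKO and 0.26 in WT, and calls over all genes were 4688 higher and 2257 lower in CKO, in place of 3397 and 3935, and 4471 higher and 3515 lower in WT, in place of 3904 and 4472. The directions of the called members held under both scalings. The GV and ovulated libraries stand in separate tables, so any batch that differs between the tables cannot be told apart from stage. CPM is relative to the RNA of each library, and fewer cells of a type cannot be told apart from less RNA per cell.

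**Figure D1:**
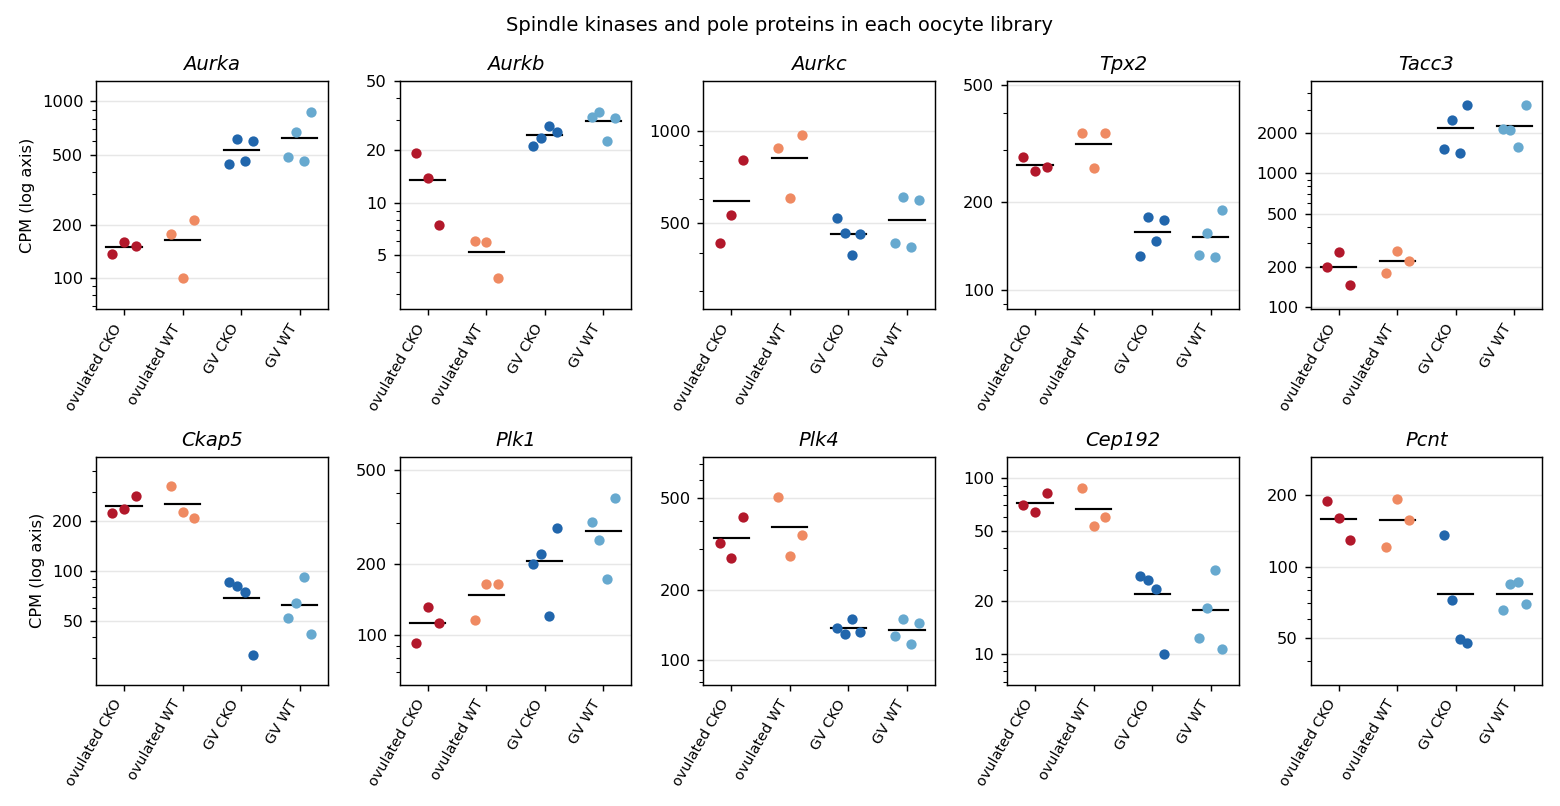
CPM of each member in each of the 14 libraries on a common scale (log axis), grouped as ovulated CKO, ovulated WT, GV CKO and GV WT. Points are libraries and lines are group means; the ovulated libraries of Tacc3 lie between 146 and 263 CPM, all below the GV libraries, which lie between 1431 and 3271 CPM.

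Aurka encodes Aurora A, the kinase of the spindle poles. It had 136, 161 and 152 CPM in ovulated CKO and 178, 100 and 212 CPM in ovulated WT libraries, against 443, 614, 462 and 596 CPM in GV CKO and 485, 674, 460 and 870 CPM in GV WT libraries. Every ovulated library was below every GV library. Aurka fell by 1.82 on the log2 scale in CKO (SE 0.307, edgeR adjusted p = 0.000139) and fell by 1.93 in WT oocytes (SE 0.308, edgeR adjusted p = 5.61e-05). Its counts were not whole numbers in any of the 14 libraries, so part of its reads was apportioned by the authors' counting and its level is uncertain to that degree. Tpx2, which encodes the activator of Aurora A, went the other way. It had 284, 254 and 263 CPM in ovulated CKO and 343, 261 and 342 CPM in ovulated WT libraries, against 130, 178, 147 and 174 CPM in GV CKO and 132, 156, 130 and 187 CPM in GV WT libraries. The groups of the stages did not overlap. Tpx2 rose by 0.76 in CKO (SE 0.217, edgeR adjusted p = 0.00674) and by 1.06 in WT oocytes (SE 0.217, edgeR adjusted p = 0.000476), both log2 fold changes. Compared per length, as FPKM (reads scaled by gene length and library size), Tpx2 over Aurka was 1.00 ± 0.140 in ovulated CKO (SD, n = 3) and 1.15 ± 0.265 in ovulated WT (SD, n = 3), against 0.168 ± 0.0106 in GV CKO (SD, n = 4) and 0.143 ± 0.0172 in GV WT libraries (SD, n = 4).

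Aurkb encodes Aurora B, the least abundant of the Aurora kinase mRNAs. It had 19.3, 13.9 and 7.51 CPM in ovulated CKO and 6.02, 5.95 and 3.68 CPM in ovulated WT libraries, against 21.1, 23.7, 27.7 and 25.6 CPM in GV CKO and 31.0, 33.4, 22.6 and 30.7 CPM in GV WT libraries. All ovulated libraries were below the GV libraries of their genotype, by a small margin in CKO. Aurkb fell by 0.85 on the log2 scale in CKO (SE 0.302, edgeR adjusted p = 0.0237) and fell by 2.49 in WT oocytes (SE 0.325, edgeR adjusted p = 9.47e-06). The call in CKO was lost without ovulated CKO replicate 3 (−0.58), GV CKO replicate 2 (−0.76), 3 (−0.79) or 4 (−0.71), or GV WT replicate 2 (−0.74) or 4 (−0.74). It was also lost with scaling to total counts (−0.25, edgeR adjusted p = 0.592) and on log2(FPKM + 1) (−0.31, limma adjusted p = 0.424).

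Aurkc encodes Aurora C, the Aurora kinase of germ cells. It had 432, 534 and 805 CPM in ovulated CKO and 880, 607 and 969 CPM in ovulated WT libraries, against 519, 465, 395 and 461 CPM in GV CKO and 432, 609, 417 and 594 CPM in GV WT libraries. The lowest ovulated library of each genotype lay within the GV range. Aurkc had a log2 fold change of 0.36 in CKO oocytes (SE 0.270, edgeR adjusted p = 0.267), and it rose by 0.67 in WT oocytes (SE 0.269, edgeR adjusted p = 0.0377). The call in WT was lost without ovulated WT replicate 1 (0.63) or 3 (0.54), or without GV WT replicate 1 (0.60) or 3 (0.59). With scaling to total counts Aurkc passed in CKO too (0.94, edgeR adjusted p = 0.00209), as on log2(FPKM + 1) (0.90, limma adjusted p = 0.00298). Under that scaling the median of all genes in CKO was 0.45, as given above.

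Within the Aurora family, Aurkc held the largest part of the summed FPKM at both stages. Its share was 85.2% ± 3.70 in ovulated CKO (SD, n = 3) and 89.3% ± 1.48 in ovulated WT (SD, n = 3), against 58.5% ± 4.74 in GV CKO (SD, n = 4) and 57.6% ± 3.18 in GV WT libraries (SD, n = 4). The Aurka share was 13.5% ± 2.96 in ovulated CKO and 10.4% ± 1.62 in ovulated WT, against 39.7% ± 4.64 in GV CKO and 40.5% ± 3.40 in GV WT libraries. Aurkb made up 1.27% ± 0.815 in ovulated CKO and 0.345% ± 0.148 in ovulated WT, against 1.79% ± 0.355 in GV CKO and 1.90% ± 0.354 in GV WT libraries. The shares of Aurkc and Aurka did not overlap between the stages in any of the 14 libraries.

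**Figure D2:**
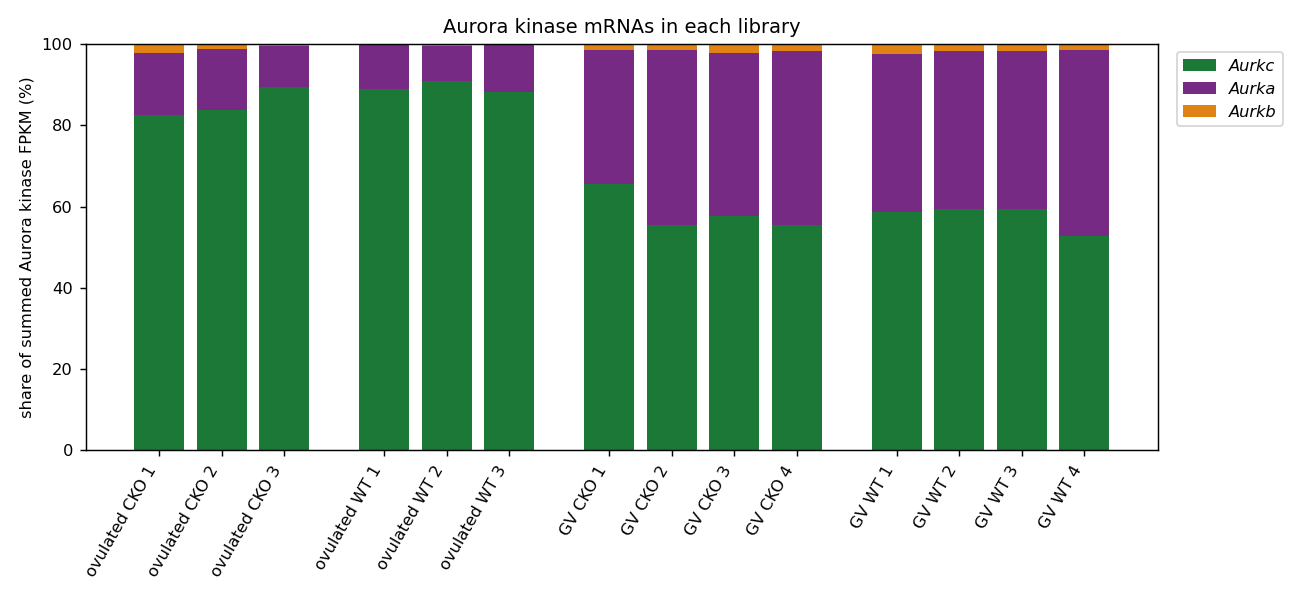
Share of the summed FPKM of Aurkc, Aurka and Aurkb (stacked bars, percent) in each library, in the order ovulated CKO, ovulated WT, GV CKO, GV WT. Aurkc took 82.4% to 90.9% in the ovulated libraries, against 52.8% to 65.4% in the GV libraries.

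Tacc3 and Ckap5 encode partners that act together on microtubules, and their mRNAs moved in opposite directions. Tacc3 had 198, 259 and 146 CPM in ovulated CKO and 179, 263 and 222 CPM in ovulated WT libraries, against 1514, 2529, 1431 and 3230 CPM in GV CKO and 2132, 2129, 1578 and 3271 CPM in GV WT libraries. The highest ovulated library was far below the lowest GV library. Tacc3 fell by 3.44 on the log2 scale in CKO (SE 0.391, edgeR adjusted p = 6.97e-06) and fell by 3.36 in WT oocytes (SE 0.390, edgeR adjusted p = 3.66e-06). Tacc3 overlaps Tmem129 on the opposite strand. Strand use in counting is not given in the sources used here, so reads of these genes cannot be told apart where they overlap. Ckap5 had 225, 236 and 282 CPM in ovulated CKO and 326, 226 and 210 CPM in ovulated WT libraries, against 86.1, 81.6, 74.3 and 30.9 CPM in GV CKO and 52.4, 64.0, 91.6 and 41.6 CPM in GV WT libraries. No ovulated library overlapped with a GV library, and GV CKO replicate 4 was the lowest of all. Ckap5 rose by 1.86 in CKO (SE 0.330, edgeR adjusted p = 0.000213) and by 2.02 in WT oocytes (SE 0.331, edgeR adjusted p = 6.9e-05), as log2 fold changes. The ratio of Ckap5 to Tacc3 in FPKM was 0.436 ± 0.184 in ovulated CKO (SD, n = 3) and 0.400 ± 0.176 in ovulated WT (SD, n = 3), against 0.0119 ± 0.00680 in GV CKO (SD, n = 4) and 0.00995 ± 0.00608 in GV WT libraries (SD, n = 4).

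The polo-like kinases also split. Plk1 drives pole formation and the activation of Aurora A. It had 92.5, 132 and 112 CPM in ovulated CKO and 116, 165 and 164 CPM in ovulated WT libraries, against 199, 220, 120 and 284 CPM in GV CKO and 301, 253, 172 and 380 CPM in GV WT libraries. The stages did not overlap in WT, and in CKO GV replicate 3 lay within the ovulated range. Plk1 fell by 0.87 on the log2 scale in CKO (SE 0.310, edgeR adjusted p = 0.024) and fell by 0.90 in WT oocytes (SE 0.310, edgeR adjusted p = 0.0184). Both calls were lost with scaling to total counts (−0.20 in CKO, edgeR adjusted p = 0.555, and −0.49 in WT, edgeR adjusted p = 0.135) and on log2(FPKM + 1) (−0.22 in CKO, limma adjusted p = 0.506, and −0.52 in WT, limma adjusted p = 0.107). Plk1 overlaps Gm44985 on the opposite strand. The call in CKO was also lost without ovulated CKO replicate 1 (−0.74) or 3 (−0.88), without GV CKO replicate 1 (−0.79), 2 (−0.73) or 4 (−0.54), and without GV WT replicate 2 (−0.77) or 4 (−0.76). The call in WT was lost without ovulated WT replicate 1 (−0.73) or GV WT replicate 4 (−0.62).

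Plk4, the kinase that starts centriole duplication in other cells and supports microtubule growth in oocytes, was higher after ovulation. It had 320, 276 and 414 CPM in ovulated CKO and 504, 281 and 346 CPM in ovulated WT libraries, against 138, 129, 150 and 131 CPM in GV CKO and 127, 151, 117 and 144 CPM in GV WT libraries. The GV libraries were close together and the ovulated ones all above them. Plk4 rose by 1.30 in CKO (SE 0.235, edgeR adjusted p = 0.000246) and by 1.49 in WT oocytes (SE 0.236, edgeR adjusted p = 5.26e-05), as log2 fold changes. Per length, Plk1 over Plk4 was 0.574 ± 0.189 in ovulated CKO (SD, n = 3) and 0.717 ± 0.304 in ovulated WT (SD, n = 3), against 2.57 ± 0.955 in GV CKO (SD, n = 4) and 3.42 ± 0.936 in GV WT libraries (SD, n = 4).

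The pole scaffolds were both higher in ovulated oocytes. Cep192 encodes the scaffold that gathers Aurora A and PLK1 at microtubule centres. It had 70.0, 64.4 and 81.5 CPM in ovulated CKO and 87.7, 53.5 and 59.7 CPM in ovulated WT libraries, against 27.8, 26.3, 23.3 and 10.1 CPM in GV CKO and 12.3, 18.2, 30.1 and 10.7 CPM in GV WT libraries. Each ovulated library was above each GV library. Cep192 rose by 1.72 in CKO (SE 0.364, edgeR adjusted p = 0.000866) and by 1.91 in WT oocytes (SE 0.366, edgeR adjusted p = 0.000278), as log2 fold changes. Pcnt encodes pericentrin, the core protein of the microtubule centres. It had 189, 160 and 129 CPM in ovulated CKO and 120, 193 and 157 CPM in ovulated WT libraries, against 136, 72.2, 49.6 and 47.8 CPM in GV CKO and 65.8, 84.6, 86.2 and 69.2 CPM in GV WT libraries. GV CKO replicate 1 reached into the ovulated range and the other GV libraries did not. Pcnt rose by 1.06 in CKO (SE 0.319, edgeR adjusted p = 0.00998) and by 1.03 in WT oocytes (SE 0.319, edgeR adjusted p = 0.00952), as log2 fold changes. Pcnt overlaps a gene on its own strand and another on the opposite strand in the annotation, and the reads of these cannot be told apart there.

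**Figure D3:**
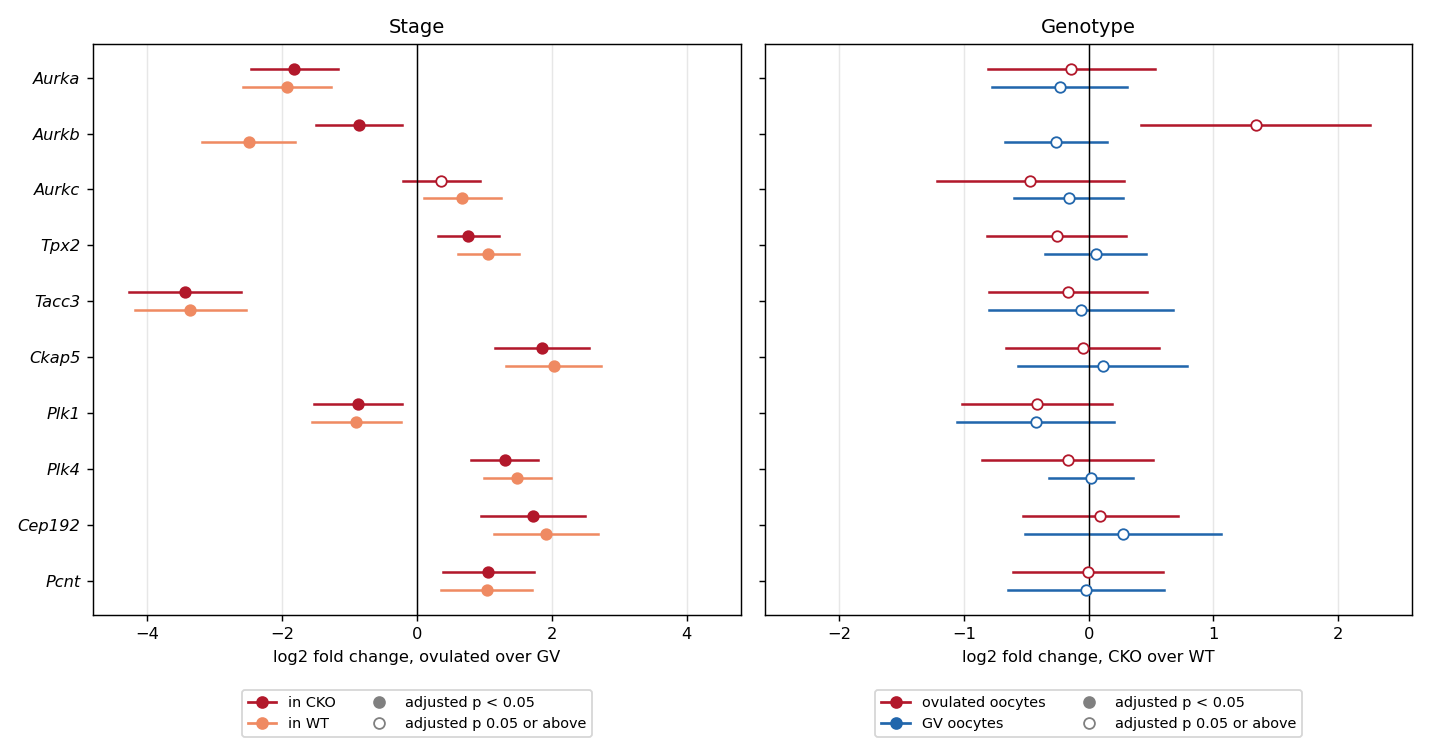
Log2 fold changes with 95% confidence intervals for each member, ovulated over GV (left) in CKO and in WT oocytes, and CKO over WT (right) in ovulated and in GV oocytes. Filled points have an edgeR adjusted p under 0.05; 9 of 10 are filled for stage in CKO, 10 of 10 in WT, and 0 for genotype at either stage.

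The order of the members per length differed between the stages. In ovulated oocytes Aurkc was first by a wide margin, with 728 ± 183 FPKM in CKO (SD, n = 3) and 947 ± 118 FPKM in WT (SD, n = 3). Plk4, Tacc3, Tpx2 and Aurka had means between 110 and 131 FPKM and neighbours that overlapped. Below them were Plk1, then Ckap5 with 47.6 ± 3.47 FPKM in CKO and 45.8 ± 7.48 FPKM in WT, Pcnt and Cep192, with no overlap between neighbours from Plk1 to Cep192. The ranges of Aurka and Plk1 overlapped in WT and not in CKO, and those of Cep192 and Aurkb overlapped in CKO and not in WT. Aurkb was last, with 9.85 ± 4.57 FPKM in ovulated CKO and 3.52 ± 1.12 FPKM in ovulated WT. In GV oocytes Tacc3 was first, with 831 ± 166 FPKM in CKO (SD, n = 4) and 1001 ± 153 FPKM in WT (SD, n = 4). Aurkc followed with 385 ± 72.7 FPKM in GV CKO and 477 ± 33.3 FPKM in GV WT, then Aurka with 258 ± 25.8 FPKM in GV CKO and 336 ± 31.0 FPKM in GV WT. Plk1, Tpx2 and Plk4 came next, and the ranges of Tpx2 and Plk4 overlapped in CKO. Aurkb, Pcnt, Ckap5 and Cep192 were the lowest, with means between 2.34 and 15.8 FPKM and overlapping neighbours.

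The comparison of genotypes in ovulated oocytes asked whether loss of Clpx changed these mRNAs. With edgeR 0 of 10 members passed, where 0.0083% of 12044 genes did, and DESeq2 and limma-voom also called 0 members. Before adjustment 935 of 12044 genes had a p under 0.05, and among the members Aurkb alone did. Aurkb stood nearest to a difference. Its 3 CKO libraries, at 7.51 to 19.3 CPM, lay above its 3 WT libraries, at 3.68 to 6.02 CPM, as was so in the same direction for 5.45% of genes. In FPKM they were also apart, at 4.86 to 13.8 in ovulated CKO against 2.39 to 4.62 in ovulated WT libraries, as for 6.07% of genes. The raw counts were 622, 507 and 223 reads in ovulated CKO, against 170, 204 and 109 reads in ovulated WT libraries. The log2 fold change was 1.34 (SE 0.418, 95% confidence interval 0.42 to 2.26, unadjusted p = 0.00843, edgeR adjusted p = 0.524), that is 2.53-fold. Over the alternatives tried it was between 1.05 and 1.56, with adjusted p between 0.0566 and 1. Without ovulated CKO replicate 3 it was 1.56 (edgeR adjusted p = 0.0989), and without ovulated CKO replicate 1 it was 1.05 (edgeR adjusted p = 0.999).

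The other 9 members overlapped between ovulated CKO and WT libraries. Their log2 fold changes were between −0.47 for Aurkc and 0.09 for Cep192, with confidence intervals that reached from −1.22 to 0.72 in all. Aurkc averaged 590 ± 193 CPM in ovulated CKO and 819 ± 189 CPM in ovulated WT (SD, n = 3 each; log2 fold change −0.47, edgeR adjusted p = 0.769). Plk1 averaged 112 ± 19.8 CPM in ovulated CKO and 148 ± 28.1 CPM in ovulated WT (SD, n = 3 each; log2 fold change −0.42, edgeR adjusted p = 0.743). Ckap5 averaged 248 ± 30.2 CPM in ovulated CKO and 254 ± 63.0 CPM in ovulated WT (SD, n = 3 each), and its log2 fold change of −0.05 had a confidence interval of −0.66 to 0.57. The median over the 10 members was −0.15, and over all tested genes −0.00048.

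In GV oocytes the same comparison also gave 0 of 10 members past the threshold with edgeR, where 0.0245% of 12265 genes passed. Of the members 0 had an unadjusted p under 0.05, where 704 of 12265 genes did, and DESeq2 and limma-voom called 0 members. In CPM the GV CKO and GV WT libraries overlapped for each of the 10 members, where 3.82% of genes did not overlap. Log2 fold changes were between −0.43 for Plk1 and 0.28 for Cep192, with edgeR adjusted p between 0.852 and 0.991 and confidence intervals that reached from −1.06 to 1.06. The median over the members was −0.04, and over all tested genes 0.02. Plk4 was the most narrowly bounded, at 137 ± 9.29 CPM in GV CKO and 135 ± 15.4 CPM in GV WT (SD, n = 4 each; log2 fold change 0.02, 95% confidence interval −0.32 to 0.36).

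On the deposited FPKM scale, which has no correction for the makeup of a library, Aurka and Plk1 did not overlap between the GV genotypes. Aurka had 237, 268, 290 and 237 FPKM in GV CKO, against 314, 339, 312 and 379 FPKM in GV WT libraries. Plk1 had 89.9, 80.5, 63.8 and 94.9 FPKM in GV CKO, against 164, 107, 98.2 and 139 FPKM in GV WT libraries. All CKO values were below all WT values for both genes, as was so in this direction for 2.89% of genes. Neither passed in limma on log2(FPKM + 1), with log2 fold changes of −0.38 for Aurka (SE 0.170, limma adjusted p = 0.956) and −0.61 for Plk1 (SE 0.218, limma adjusted p = 0.956). The scaling factors behind the CPM values were between 0.654 and 1.05 in GV CKO and between 0.721 and 1.12 in GV WT libraries.

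Whether the effect of genotype itself differed between the stages was tested as an interaction. Aurkb had the largest difference among the members, 1.64 on the log2 scale (SE 0.423, 95% confidence interval 0.75 to 2.53, unadjusted p = 0.00125). It did not pass (edgeR adjusted p = 0.28), and 0 of 10 members did, where 0.0076% of 13158 genes passed. DESeq2 and limma-voom called 0 members as well, with adjusted p for Aurkb of 0.0572 in DESeq2 and 0.682 in limma-voom. Without ovulated CKO replicate 3 Aurkb passed, at 1.91 (edgeR adjusted p = 0.00873), in a fit that called 3.68% of genes. Over all alternatives its value was between 1.32 and 1.91 and its adjusted p between 0.00873 and 0.684. The other 9 members had differences between −0.31 for Aurkc and 0.11 for Aurka.

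Stage differences across the genome varied with the length of the transcript, and the members were spread over that range. Genes with transcripts under 2 kb had a median log2 fold change, ovulated over GV, of −1.11 in CKO and −1.25 in WT oocytes. Genes with transcripts of 6 kb or more had medians of 0.91 in CKO and 0.98 in WT oocytes. The members that fell, Aurka (1905 bases), Aurkb (1950 bases), Plk1 (2199 bases) and Tacc3 (2899 bases), are among the shorter ones. Those above 4 kb, Tpx2 (4161 bases), Ckap5 (6665 bases), Cep192 (8093 bases) and Pcnt (9331 bases), rose. Aurkc (1154 bases) is the shortest and Plk4 has 3479 bases. Set against genes of their own length class, Tacc3 lay below the lower quartile in both genotypes, and Aurkc, Plk4, Ckap5 and Cep192 lay above the upper quartile. Aurka, Aurkb, Tpx2, Plk1 and Pcnt lay between the quartiles of their classes. The part of transcript length in the differences of single members was not tested.

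**Figure D4:**
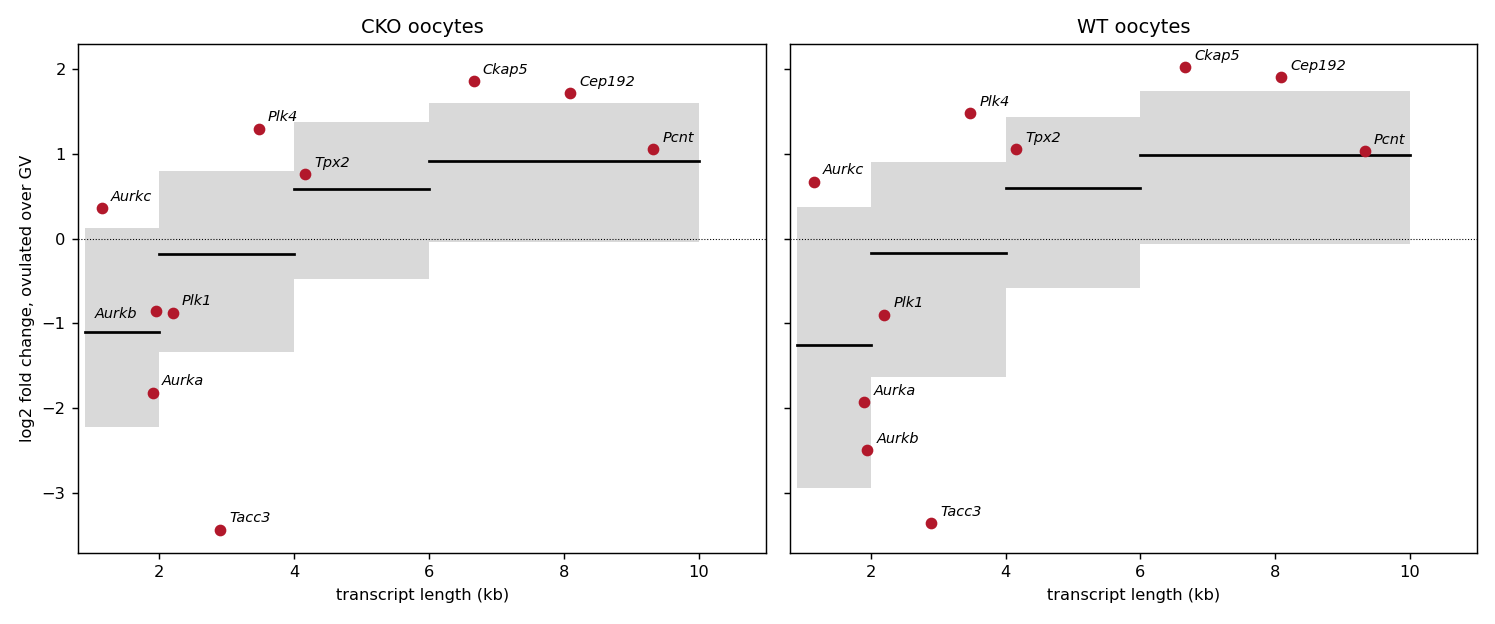
Log2 fold change, ovulated over GV, of each member (red points) against transcript length in kb, in CKO (left) and WT oocytes (right). Black lines are the medians and grey bands the quartiles of all genes with transcripts under 2 kb, of 2 to 4 kb, 4 to 6 kb, and 6 kb or more; Tacc3 lies below its band and Aurkc, Plk4, Ckap5 and Cep192 above theirs.

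The motif in the 3′ ends shown above also went with stage differences across the genome. Genes with a CPE had a median log2 fold change, ovulated over GV, of 0.55 in CKO and 0.68 in WT oocytes, and genes without one had medians of −0.31 in CKO and −0.32 in WT oocytes. In WT oocytes 45.1% of genes with a CPE were higher and 18.7% lower, against 26.5% higher and 37.7% lower among genes without one. Among transcripts under 2 kb the medians in WT oocytes were 0.42 with a CPE and −1.59 without. The contrast was smaller among longer transcripts. With and without a CPE the WT medians were 0.50 and −0.41 at 2 to 4 kb and 1.00 and 0.53 at 4 to 6 kb. At 6 kb or more they were 1.14 and 0.92. Of the 6 members with a CPE, Ckap5, Plk4 and Pcnt rose in both genotypes, Aurkc rose in WT, and Aurka and Aurkb fell. Of the 4 without one, Tpx2 and Cep192 rose and Tacc3 and Plk1 fell. The letters are a description of this window, and tail lengths were not measured.

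Spread among libraries of a group was similar in size at both stages. The coefficient of variation of a member had a median of 18.2% in ovulated CKO, 24.0% in ovulated WT, 24.8% in GV CKO and 25.3% in GV WT libraries. It was largest for Pcnt in GV CKO, at 54.1%. In GV oocytes the long transcripts Ckap5 and Cep192 were lowest in CKO replicate 4 and WT replicate 4 and highest in WT replicate 3 and CKO replicate 1. The same libraries were the extremes for long genes in general. Pcnt, the longest member, was also highest in GV CKO replicate 1 (0.85) and lowest in GV CKO replicate 4 (−0.56). However, Pcnt was nearly as low in GV CKO replicate 3 (−0.54) and stood at −0.08 in GV WT replicate 4. The median deviation of genes of 6 kb or more minus that of genes under 2 kb was −0.39 in GV CKO replicate 4 and −0.27 in GV WT replicate 4, against 0.29 in GV CKO replicate 1 and 0.34 in GV WT replicate 3, on the log2 scale. Tacc3 deviated by 0.65 in GV CKO replicate 4 and by 0.61 in GV WT replicate 4, the opposite direction to Ckap5 in the same libraries (−0.94 in CKO and −0.57 in WT). Among ovulated CKO libraries, Aurkb was highest in replicate 1, where the same difference of long and short genes was −0.22, and lowest in replicate 3, where it was 0.21. In ovulated WT libraries Aurkb was also lowest in replicate 3 (deviation −1.05), but there the difference was −0.28. Aurkb was close to equal in replicates 1 (−0.40) and 2 (−0.39), where the difference was 0.33 and 0.13. The part of this library property in the differences between groups was not tested.

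**Figure D5:**
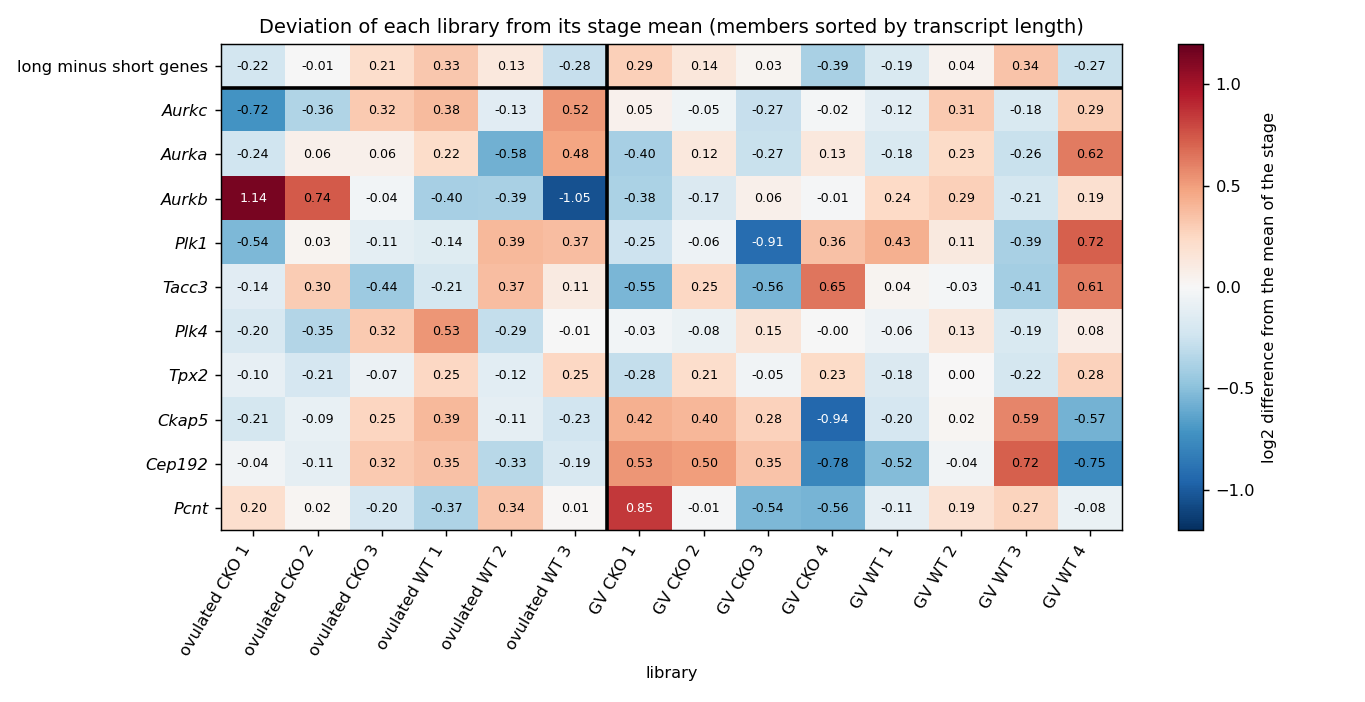
Log2 CPM of each member, scaled within its stage, minus its mean over the libraries of the stage (colour and printed value), with members sorted by transcript length. The top row gives the median deviation of genes of 6 kb or more minus that of genes under 2 kb; Ckap5 is lowest in GV CKO replicate 4 (−0.94), where the top row is −0.39.

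Other genes of spindle assembly, in 7 lists of 88 genes, were read beside the members. Ovulated against GV, 25 rose and 19 fell of 84 tested in CKO oocytes, and 30 rose and 22 fell in WT oocytes. That is 52.4% passing in CKO and 61.9% in WT, near the shares of all genes (55.7% in CKO and 63.7% in WT). With scaling to total counts the split was 39 higher and 9 lower in CKO and 39 higher and 15 lower in WT oocytes. Between CKO and WT, 0 of 84 list genes passed with edgeR in ovulated oocytes (median log2 fold change −0.12; 4 with an unadjusted p under 0.05) and 0 of 83 in GV oocytes (median 0.02; 2 with an unadjusted p under 0.05). Over all genes 935 of 12044 in ovulated and 704 of 12265 in GV oocytes had an unadjusted p under 0.05. In ovulated oocytes DESeq2 called 2 list genes and limma-voom 0, and in GV oocytes both called 0.

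Without ovulated CKO replicate 3, edgeR called 3 list genes between ovulated CKO and WT, all higher in CKO: Cetn2, Fzr1 and Kpna2, which are named here after their values were seen. In that fit 1.6% of 12576 genes passed, 196 of 201 of them higher in CKO. Kpna2 encodes the importin that holds TPX2 until Ran releases it, and it had 605, 570 and 170 CPM in ovulated CKO, against 164, 127 and 156 CPM in ovulated WT libraries. Replicates 1 and 2 of ovulated CKO stood well above the WT libraries and replicate 3 lay just above them. Its log2 fold change was 1.55 with all libraries (edgeR adjusted p = 0.524; DESeq2 adjusted p = 0.0311) and 1.88 without replicate 3 (edgeR adjusted p = 0.0135). Cetn2, which encodes centrin, had 79.5, 50.4 and 10.0 CPM in ovulated CKO, against 4.99, 12.6 and 7.98 CPM in ovulated WT libraries. Here replicate 3 lay within the WT range. Its log2 fold change was 2.40 with all libraries (edgeR adjusted p = 0.524; DESeq2 adjusted p = 0.00776) and 2.82 without replicate 3 (edgeR adjusted p = 0.0131). In GV oocytes the log2 fold change, CKO over WT, was 0.49 for Cetn2 (edgeR adjusted p = 0.834) and 0.14 for Kpna2 (edgeR adjusted p = 0.937). Aurkb had the same order of libraries as Cetn2 and Kpna2 in ovulated CKO, with replicate 1 highest and replicate 3 lowest.

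Of 3 tested partners of Aurora B and Aurora C in the chromosomal passenger complex, 1 rose and 1 fell in WT oocytes, where 63.7% of all genes passed. In CKO 0 rose and 1 fell, where 55.7% of all genes passed. Birc5 (survivin) fell by 1.72 on the log2 scale in CKO (SE 0.378, edgeR adjusted p = 0.0011) and fell by 2.19 in WT oocytes (SE 0.386, edgeR adjusted p = 0.000132). Incenp, the scaffold of the complex, rose by 1.57 in WT oocytes (SE 0.362, edgeR adjusted p = 0.0013) and had a log2 fold change of 0.82 in CKO (edgeR adjusted p = 0.0621). Cdca8, the remaining partner, passed in neither genotype. It had log2 fold changes of 0.20 in CKO (edgeR adjusted p = 0.514) and 0.55 in WT oocytes (edgeR adjusted p = 0.0655). Under scaling to total counts 2 of the 3 partners were higher and 1 lower in each genotype. Of the other polo-like kinases, 2 of 3 were tested and 0 passed in either genotype, with median log2 fold changes of −0.13 in CKO and −0.04 in WT oocytes. Of 6 tested regulators of Aurora A and PLK1, 1 rose and 1 fell in CKO (33.3% passing), and 2 rose and 1 fell in WT oocytes (50% passing). With scaling to total counts, 2 of these regulators were higher and 0 lower in CKO, and 3 higher and 1 lower in WT. Ppp1r12a, the targeting subunit of myosin phosphatase, which counteracts PLK1, rose by 1.53 in CKO and 1.75 in WT oocytes (edgeR adjusted p = 0.000281 and 5.98e-05). Bora, the cofactor through which Aurora A activates PLK1, fell by 0.69 in CKO (edgeR adjusted p = 0.0289) and had a log2 fold change of −0.40 in WT oocytes (edgeR adjusted p = 0.179). Fzr1, the activator of the anaphase-promoting complex that targets Aurora A, had a log2 fold change of −0.84 in CKO (edgeR adjusted p = 0.183) and fell by 3.21 in WT oocytes (edgeR adjusted p = 0.00018). Nedd9, an Aurora A activator, had a log2 fold change of 0.56 in CKO (edgeR adjusted p = 0.0709) and rose by 0.75 in WT oocytes (edgeR adjusted p = 0.0169).

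Of 15 tested pericentriolar and linker proteins, 9 rose and 0 fell in CKO, where 25.8% of all genes were higher and 29.9% lower, and 9 rose and 1 fell in WT oocytes, where 29.7% were higher and 34% lower. The others, 6 in CKO and 5 in WT, did not pass, and the 1 that fell in WT was the kinase gene Nek2 (−1.27, edgeR adjusted p = 0.00362). The list had median log2 fold changes of 1.08 in CKO and 1.49 in WT. With scaling to total counts the split was 10 higher and 0 lower in CKO and 12 higher and 0 lower in WT. Of all genes with transcripts under 2 kb, 11.1% were higher in CKO and 16.4% in WT. The shares were 22.6% in CKO and 26.5% in WT at 2 to 4 kb, and 41.4% in CKO and 43.1% in WT at 4 to 6 kb. At 6 kb or more they were 50.9% in CKO and 53.7% in WT. Transcript lengths of the list genes are not given here. The part of transcript length in the counts of this list was not tested. Pcm1, the scaffold of centriolar satellites, rose by 2.16 in CKO and 2.59 in WT oocytes (edgeR adjusted p = 0.000606 and 9.96e-05). Akap9, which anchors kinases at microtubule centres, rose by 1.52 in CKO and 1.85 in WT oocytes (edgeR adjusted p = 0.000188 and 2.26e-05). Ofd1 rose by 1.08 in CKO and 1.49 in WT oocytes, Nin (ninein) by 1.52 in CKO and 1.69 in WT, and Cntrob by 1.66 in CKO and 2.50 in WT oocytes. Of 11 centriole assembly factors, 4 rose and 2 fell in CKO (36.4% higher, 18.2% lower). In WT oocytes 7 rose and 2 fell (63.6% higher, 18.2% lower), beside the shares of all genes that open this paragraph. The split under scaling to total counts was 7 higher and 1 lower in CKO and 7 higher and 2 lower in WT. Ccp110 rose by 2.07 in CKO and 2.32 in WT, and Cenpj by 1.63 in CKO and 1.83 in WT oocytes. Poc1a fell by 2.30 in CKO and fell by 2.23 in WT oocytes. Cep135 rose by 1.16 in CKO and 1.43 in WT, and Cetn2 fell by 1.72 in CKO and fell by 3.69 in WT oocytes.

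The gamma-tubulin complexes and augmin nucleate microtubules. Of 17 tested members of these, 2 rose and 8 fell in CKO (47.1% lower, against 29.9% of all genes), and 4 rose and 8 fell in WT oocytes (47.1% lower, against 34% of all genes), with a median log2 fold change of −0.76 in each genotype. With scaling to total counts the split in CKO turned to 6 higher and 4 lower, and in WT it was 5 higher and 6 lower. Mzt2 fell by 3.40 in CKO and fell by 4.52 in WT oocytes (edgeR adjusted p = 9.24e-05 and 8.9e-06). Tubgcp2, a core subunit, fell by 2.13 in CKO and fell by 3.04 in WT oocytes (edgeR adjusted p = 3.36e-05 and 1.63e-06). The augmin subunit gene Haus7 fell by 2.15 in CKO and fell by 3.77 in WT oocytes, and Haus3 fell by 1.58 in CKO and fell by 1.81 in WT oocytes. Of 30 genes of the Ran pathway and other spindle microtubule factors, 9 rose and 7 fell in CKO, and 7 rose and 9 fell in WT oocytes. That is 53.3% passing in each genotype, against 55.7% of all genes in CKO and 63.7% in WT. With scaling to total counts the split was 12 higher and 3 lower in CKO and 10 higher and 5 lower in WT. Kpna2 fell by 2.81 in CKO and fell by 4.26 in WT oocytes (edgeR adjusted p = 4.08e-05 and 1.55e-06). Clasp2, which stabilises microtubule ends, rose by 2.44 in CKO and 3.08 in WT oocytes (edgeR adjusted p = 4.35e-05 and 3.92e-06). Rcc1, the exchange factor of Ran, rose by 2.11 in CKO and 2.14 in WT oocytes, and Nusap1 fell by 1.84 in CKO and fell by 1.74 in WT oocytes. Gtse1 fell by 1.00 in CKO and fell by 1.71 in WT oocytes.

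For each member the gene with the most similar pattern was taken as the smallest root mean square difference of log2 CPM deviations over the 14 libraries, among 13157 other genes. The members' own deviations were between 0.400 for Aurkc and 1.71 for Tacc3 on the same scale. Fkbp1a was nearest to Aurkc (0.102), Nav3 to Ckap5 (0.112), Tax1bp1 to Tpx2 (0.113), Sytl4 to Plk4 (0.116) and Nbeal1 to Cep192 (0.138). Plrg1 was nearest to Aurka (0.184), Abcc3 to Plk1 (0.189), Shank2 to Pcnt (0.198), Kif17 to Tacc3 (0.225) and Pcnx4 to Aurkb (0.271). All genes share the libraries and most share the stage difference, so likeness describes the shape over these 14 libraries. Ckap5 was the gene with the second smallest distance to Cep192 (0.160), and Cdca8, which encodes borealin of the passenger complex, the one with the second smallest to Aurkc (0.142); both were picked out after their values were seen.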

How the data were processed

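The 14 libraries were grouped by their labels. For GV and for ovulated oocytes the authors deposited expected counts and FPKM values. The deposited expected counts are estimates, with 14.45% to 16.32% fractional in a library, and the deposited FPKM values are scaled by length and library size. The build is mm10, per the submitters' processing notes, and the aligner and counter are not given in the sources used here. Counts were rounded and tested with edgeR 4.0.16 in R 4.3.3 (TMM normalization; low counts removed by filterByExpr at 10; quasi-likelihood F-test, robust; Benjamini-Hochberg adjustment over all genes tested, threshold 0.05). Genotypes were compared within the table of a stage. Stages and the interaction came from 1 fit of the 14 libraries on genes in both tables, which also gave the CPM values; the deviations of single libraries use CPM scaled within a stage. Alternatives were DESeq2 1.42.0, limma 3.58.1 (voom, or log2(FPKM + 1) with a pseudocount of 1), other scalings, no filter, a replicate block and leaving out libraries. The 10 members, the 7 lists and the markers were chosen with earlier results of these data known. All members are named, with up to 4 passing genes of smallest p per list and comparison; 1 such gene is not reported here. Transcript lengths and 3′ ends came from GENCODE M21, which matched 97.27% of 13158 genes to a transcript and 95.78% to a 3′ UTR.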

Additional observations from a re-analysis of the deposited data

Results flagged for a closer look

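In GV CKO oocytes Ckap5 in replicate 4 lay far below the other 3 libraries, at 27.6 CPM when scaled within the GV table (30.9 CPM on the scale of all 14 libraries). The gap to the nearest library was 0.844 of the whole range of the group. It was the 1 distant library among 20 groups of 4 tested, where chance alone flags about 1 group in 20.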

How the results depend on the processing

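Over 22 alternatives the members called numbered 7 to 9 for ovulated against GV in CKO and 8 to 10 in WT. For CKO against WT they numbered 0 in each of 15 alternatives in ovulated and 17 in GV oocytes. With libraries left out in turn the interaction gave 0 to 1 members, the 1 being Aurkb without ovulated CKO replicate 3. Every called stage difference kept its sign in all 21 alternatives. The sign changes were all among genotype differences that passed nowhere. With total count scaling the log2 fold change, CKO over WT, was 0.051 for Ckap5 and 0.072 for Pcnt in ovulated oocytes, and −0.052 for Ckap5, −0.12 for Plk4 and −0.11 for Tpx2 in GV oocytes. On log2(FPKM + 1) it was 0.025 for Aurka, 0.062 for Ckap5 and 0.18 for Pcnt in ovulated oocytes, and −0.072 for Ckap5, −0.14 for Plk4 and −0.14 for Tpx2 in GV oocytes. Pcnt in ovulated oocytes was 0.021 in the fit of 14 libraries, 0.014 with limma-voom and 0.00047 without a filter, and in GV oocytes 0.00034 in the fit of 14 libraries. With libraries left out in turn the ranges in ovulated oocytes were −0.39 to 0.036 for Aurka, −0.099 to 0.29 for Cep192, −0.24 to 0.13 for Ckap5, −0.21 to 0.18 for Pcnt and −0.44 to 0.052 for Plk4. In GV oocytes they were −0.042 to 0.37 for Ckap5, −0.43 to 0.14 for Pcnt, −0.035 to 0.074 for Plk4, −0.33 to 0.16 for Tacc3 and −0.010 to 0.17 for Tpx2. The cause of these changes was not tested.

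Libraries share replicate numbers, but the labels do not say that a number marks a shared animal or batch. Deviations of same-numbered CKO and WT libraries of a stage correlated between −0.25 and 0.33. Those of differently numbered ones correlated between −0.37 and 0.37. With the replicate number as a block, 8 members were called for stage in CKO (Plk1 at −0.66, adjusted p = 0.0586, was lost) and 9 in WT (Aurkc at 0.70, adjusted p = 0.0568, was lost). The genotype comparisons and the interaction gave 0 members under the block, where Pcnt in ovulated oocytes stood at 0.012. DESeq2 called more genes than edgeR between the genotypes, 114 against 1 in ovulated and 39 against 3 in GV oocytes, and 64 against 1 for the interaction. The fit of 14 libraries called 64 genes between the genotypes in ovulated oocytes. With libraries left out in turn the counts were 1 to 201 in ovulated and 3 to 6 in GV oocytes, and 0 to 498 for the interaction. For the list genes, scaling to total counts, DESeq2, limma-voom and the omission of ovulated CKO replicate 3 are additions made with the data in view. Without that library 22 of 84 list genes rose and 20 fell for stage in CKO, where 47.1% of 13521 genes passed (2876 higher, 3486 lower). In the interaction 5 of 84 list genes passed, all higher. That fit called 3.68% of all genes, and 489 of these 498 were higher. In ovulated oocytes 3 libraries a group bound a genotype difference only to intervals such as −1.22 to 0.28 for Aurkc.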
